A study of Cocos nucifera with 22 samples.

Results

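Leaves of Aromatic dwarf coconut seedlings were compared at 4 h and at 0 h of a salt treatment. The comparison was made of the libraries whose titles give the dwarf and these times, which are 6 of the 22 leaf RNA-seq libraries of the study. The 3 libraries of 0 h were taken before salt and served as the control. The 3 libraries of 4 h followed irrigation with 200 mM NaCl. All seedlings were 4 to 5 months old and 50 cm high and grew in containers in a greenhouse. Salt was given weekly in diluted Murashige and Skoog nutrient solution. The same was done for the Hainan tall, the variety used for genome sequencing. Its 3 libraries of 0 h and 3 of 4 h are used here to test where the dwarf differed. All tall libraries also entered the fit that gave the dwarf calls, where they helped to estimate the spread and the flow cell term. No leaves kept without salt beyond 0 h are described. Salt, the nutrient solution, the hour of the day and the time elapsed therefore cannot be told apart in any change given here. The methods give 3 seedlings as the replicates and 3 leaves, and samples of the same number were taken from the same leaf.

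A plant that meets salt first loses the water potential that draws water into its cells, and sodium and chloride accumulate in its leaves later. Abscisic acid, reactive oxygen species and the salt overly sensitive (SOS) pathway carry signals of these stresses. Many leaf genes also follow the day: clock genes such as LHY peak near dawn and decline through the morning, and many genes of light harvesting and carbon fixation also vary over the day.

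The files give an expected count and an FPKM for each gene. FPKM is a number of fragments scaled by gene length and by the mapped total of the library, so levels of different genes are on a scale per length. It is not corrected for a change in the makeup of the library, for which the TMM factors of the fit were 0.832 to 1.136 over the 22 libraries. All levels below are in FPKM, in the order of leaf 1, leaf 2 and leaf 3. Changes are log2 fold changes from the expected counts, with their standard error, and all adjusted p are from edgeR unless another tool is named. The fit used the libraries of all 8 groups, which share an estimate of the spread, and had a term for the flow cell, so that a change can differ from the ratio of the levels. A gene was called higher or lower at a Benjamini-Hochberg adjusted p under 0.05 over all 18840 genes tested. Genes carry the locus tags (CN01) and product names that the study gives, and many products are named by likeness to other species.

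The total expected count was 3253749 to 3343568 at 0 h and 2977359 to 3339199 at 4 h, and 21651 to 22070 genes were listed per library. The first principal component of the 6 libraries held 48.6% of their variance and separated 0 h from 4 h. Leaf 1 of 0 h stood apart on it, at -17.4, against -73.4 and -66.7 for the other leaves of 0 h and 39.7 to 70.4 for those of 4 h. Flow cells were unevenly used. All 3 libraries of 0 h and leaf 3 of 4 h were on flow cell AV, and leaves 1 and 2 of 4 h were on AW. The flow cell was a term of the fit, and 6 genes were called for it.

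Markers of leaf mesophyll were abundant in all 6 libraries, with the Rubisco small chain (CN01_03G009080) at 21937, 25815 and 27273 at 0 h and 14236, 18855 and 16486 at 4 h. The summed level of the 8 mesophyll markers was 32560 to 41040 at 0 h and 19080 to 24980 at 4 h. The sum of 5 vascular markers was 1531, 655 and 804 at 0 h and 1502, 1430 and 1514 at 4 h. The sum of 7 epidermis markers was 9613, 5823 and 6257 at 0 h and 6864, 11430 and 9095 at 4 h. Leaf 1 of 0 h thus had the highest vascular and epidermis sums of its group. In whole leaf samples, fewer cells of a type and less RNA per cell cannot be told apart. The seed storage protein 11S globulin (CN01_scaffold011975G000040) was at 197, 6.6 and 15.1 at 0 h and 848, 11.5 and 20 at 4 h, so leaf 1 was the highest at both times. The part of these markers in the results below was not tested.

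In all, 2457 of 18840 genes (13.0%) were called at 4 h, 1094 of them higher (5.81%) and 1363 lower (7.23%). Levels of the groups of 3 did not overlap for 33.9% of the genes tested. Over all genes tested the median change was 0.00. Of the 738 genes for which product names were at hand, 11.5% were called higher and 29.5% lower. The study selected those genes by their expression in the Hainan tall libraries, and all lists below were drawn from them. The median change of these 738 genes was -0.27, and their groups did not overlap with 4 h lower for 34.1% and with 4 h higher for 22.5%. The counts of list members below stand beside both backgrounds, all genes tested and these 738, and a count near the latter shows nothing particular to its list. The number of calls rested on single libraries. Leaving out dwarf 0 h replicate 2 gave 1324 genes, 0 h replicate 3 gave 1359, 4 h replicate 1 gave 1572 and 4 h replicate 3 gave 968. With only the 4 h library of flow cell AV (leaf 3) it was 631.

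**Figure D1:**
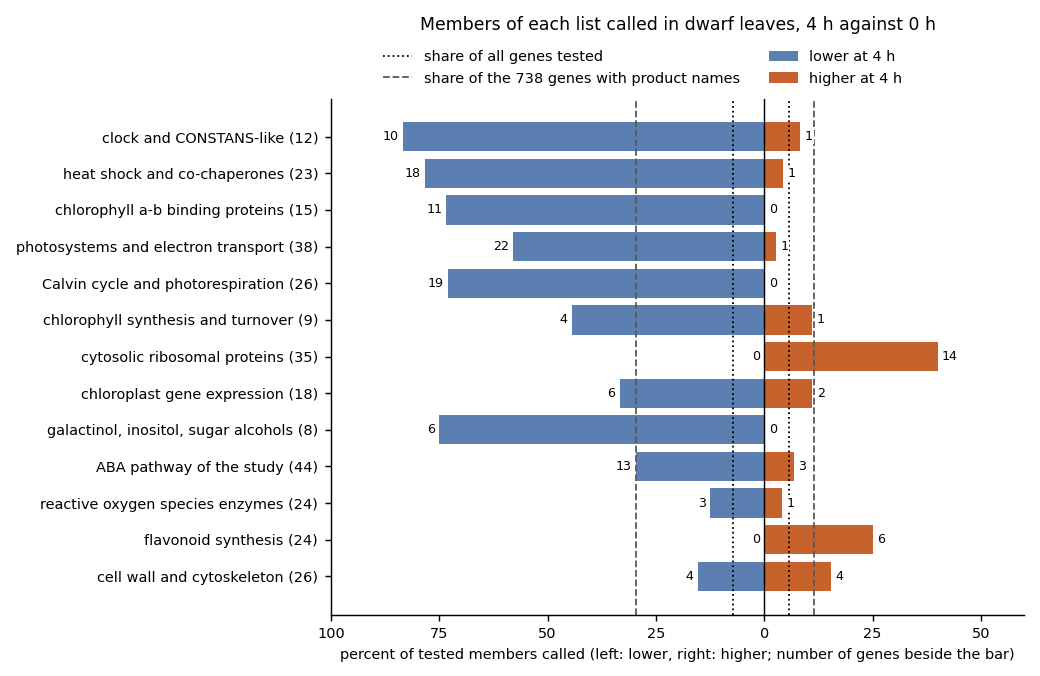
Share of the tested members of 13 gene lists called lower (blue, left) or higher (orange, right) in dwarf leaves at 4 h against 0 h, in percent, with the number of genes beside each bar and of members tested in brackets. Dotted lines give the shares of all 18840 genes tested and dashed lines those of the 738 genes from which the lists were drawn. Clock, heat shock and photosynthesis lists lie to the left, and cytosolic ribosomal proteins (14 of 35 higher) and flavonoid synthesis (6 of 24 higher) to the right.

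Genes of the morning clock were low at 4 h. Of 12 genes of the circadian clock and CONSTANS-like genes, 10 were called lower, against 7.23% of all genes tested and 29.5% of the 738, and 1 was higher, against 5.81% and 11.5%. Their median change was -2.97. The LHY gene CN01_09G003420, on chromosome 9, was at 491, 782 and 764 FPKM at 0 h and 62.7, 57.8 and 82.1 at 4 h. All 3 leaves of 4 h lay below all 3 of 0 h, and the gene fell by 3.37 (adjusted p = 5.27e-07, standard error 0.26). LHY is a Myb-like transcription factor of the clock that is made in the morning and represses evening genes in Arabidopsis. A second LHY gene, CN01_07G008390, went from 84.3, 113 and 121 to 12.6, 13.7 and 14.2 and fell by 3.01 (adjusted p = 2.03e-07, standard error 0.21). An LHY-like gene, CN01_08G007820, fell by 3.06 (adjusted p = 4.7e-06, standard error 0.29). LHY copies resemble each other, and how reads were split between them is not known beyond RSEM's estimate.

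Other clock genes were lower too. LNK1 (CN01_scaffold042090G000030), a coactivator that works with Myb-like factors of the clock, was at 54, 128 and 98.7 at 0 h and 10.2, 5.71 and 7.2 at 4 h. It fell by 3.78 (adjusted p = 1.01e-05, standard error 0.39). REVEILLE 5 (CN01_08G007680), a relative of LHY, was at 142, 339 and 233 and then 31.8, 32.3 and 34, and fell by 2.94 (adjusted p = 3.16e-05, standard error 0.33). Gigantea1 (CN01_03G016920), which follows LHY in the day, was the member called higher. It stood at 326, 275 and 312 at 0 h and 553, 415 and 556 at 4 h, with no overlap, and rose by 0.71 (adjusted p = 0.0266, standard error 0.20). Its adjusted p was 0.051 with the leaf as a block and 0.0659 to 0.172 without 0 h replicate 2 or 3 or 4 h replicate 1 or 3.

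CONSTANS-like genes carry B-box zinc fingers, and CONSTANS itself reads day length for flowering in Arabidopsis. CONSTANS-LIKE 2 (CN01_01G005950) was at 53.5, 190.3 and 135 at 0 h and 2.87, 1.41 and 1.23 at 4 h. This fall of 6.38 (adjusted p = 3.05e-06, standard error 0.59) was among the largest of any named gene. A second CONSTANS-LIKE 2 gene (CN01_11G011580) was at 71.4, 70.8 and 85.3 and then 8.54, 17.5 and 12.1, and fell by 2.68 (adjusted p = 1.21e-05, standard error 0.28). CONSTANS-LIKE 3 (CN01_scaffold064740G000010) and CONSTANS-LIKE 4 (CN01_11G009270) fell less, by 1.29 (adjusted p = 0.000345) and 1.01 (adjusted p = 0.0124, and 0.0621 without 0 h replicate 2). GHD7 (CN01_scaffold008284G000080), which delays flowering under long days in rice, was at 19.4, 141 and 76.1 at 0 h and 4.34, 1.97 and 3.52 at 4 h. Leaf 1 was the lowest of 0 h for GHD7 and for CN01_01G005950, but still above every leaf of 4 h. GHD7 fell by 5.06 (adjusted p = 0.000497, standard error 0.76).

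The clock genes also moved in the tall, where 11 of the 12 were called lower and 1 higher at 4 h, against 9.73% and 10.9% of all genes tested and 19.4% and 20.6% of the 738. The difference of the 4 h change between the varieties, called for 0.0584% of all genes, was called for none of the 12 by edgeR or DESeq2, and 4 had an unadjusted p under 0.05 (edgeR), against 12.2% of all genes tested and 37.7% of the 738, so the list did not stand above its source. The summed level of the list in the dwarf was 2077, 3226 and 2861 at 0 h and 1011, 931 and 1045 at 4 h. At 6 days it was 3688 to 4555 and at 10 days at least 5451. Those later times use the same 0 h libraries as their control and are given as levels only.

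**Figure D2:**
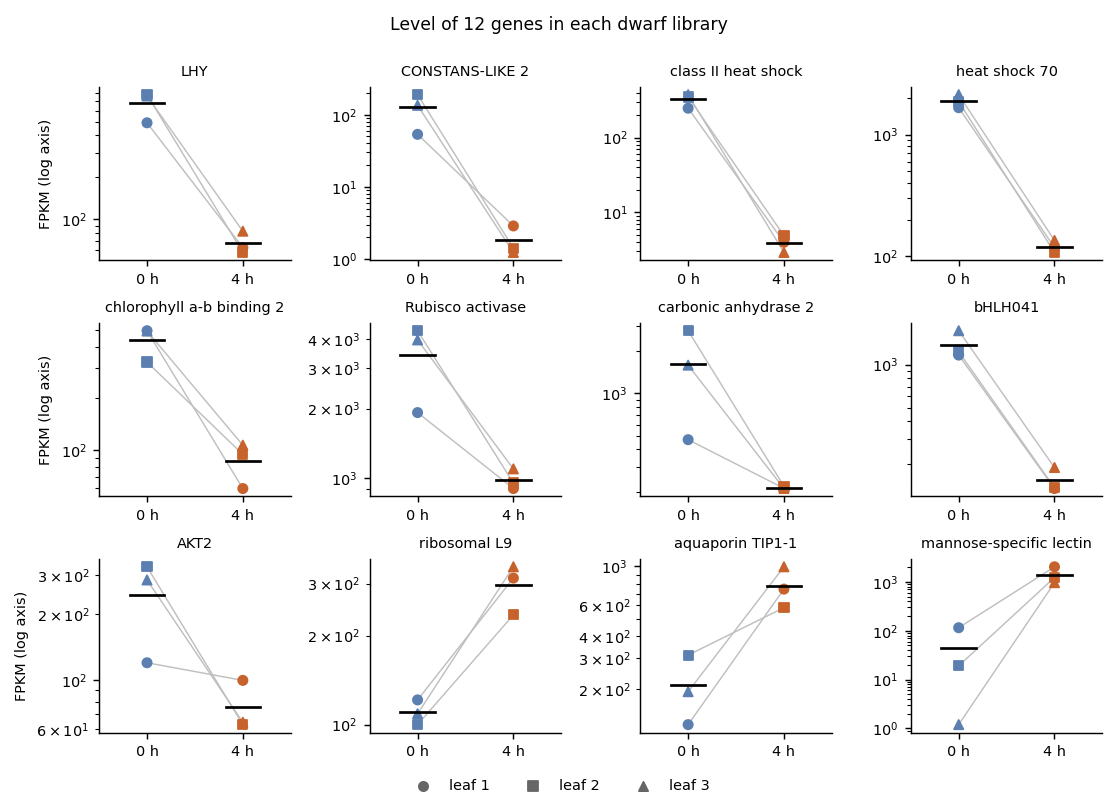
Level of 12 genes (FPKM, log axis) in each of the 6 dwarf libraries at 0 h (blue) and 4 h (orange), with lines that join samples of the same leaf and black bars for group means. LHY, heat shock and photosynthesis genes are lower at 4 h in each leaf, and ribosomal protein L9, TIP1-1 and the lectin are higher in each leaf.

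Cytosolic heat shock proteins, which keep other proteins from clumping, were abundant at 0 h and far lower at 4 h. Of 23 heat shock proteins and co-chaperones, 18 were called lower, against 7.23% of all genes tested and 29.5% of the 738. Another 1 was higher, against 5.81% and 11.5%, and the median change was -2.58. For 19 the levels of 4 h lay below all those of 0 h, against 15.3% and 34.1%. A 17.3 kDa class II protein (CN01_scaffold007600G000070) was at 248, 351 and 376 at 0 h and 3.97, 4.88 and 2.9 at 4 h. It fell by 6.64 (adjusted p = 5.35e-09, standard error 0.36), the smallest adjusted p of the list. Small heat shock proteins hold unfolded proteins without using ATP. An 18.2 kDa class I protein (CN01_03G008730) was at 1222, 579 and 1075 and then 17.3, 23.6 and 21.7, and fell by 5.47 (adjusted p = 7.47e-06, standard error 0.55). Of a pair of 16.9 kDa class I genes on chromosome 2 with the same product name, CN01_02G006280 fell by 4.61 (adjusted p = 9.68e-07, standard error 0.38). The other, CN01_02G006300, was at 163, 80.5 and 187 at 0 h and 0.74, 2.59 and 0 at 4 h. Reads may be shared between this pair, and the 4 h level of the second gene rests on 4 counts in all, against 628 at 0 h. The ratio of 4 h to 0 h in summed counts was 0.00675 (exact 95% interval 0.00183 to 0.0174, counting error only).

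The larger chaperones were lower as well. A heat shock 70 kDa protein (CN01_12G007620), an ATP-driven folding chaperone, was at 1663, 1869 and 2129 at 0 h and 118, 107 and 134 at 4 h. It fell by 4.01 (adjusted p = 8.89e-07, standard error 0.33). Heat shock protein 83, of the Hsp90 family that matures signaling proteins, had 2 genes in the list. CN01_09G002610 was at 367, 544 and 770.3 and then 34.4, 43.6 and 49.3 and fell by 3.63 (adjusted p = 6.49e-05, standard error 0.44), and CN01_09G002360 fell by 4.90 (adjusted p = 0.000123, standard error 0.64). ClpB1 (CN01_06G004430), which pulls proteins out of aggregates, went from 259, 230.1 and 253 to 28.7, 15.2 and 19.4 and fell by 3.68 (adjusted p = 3.05e-06, standard error 0.34). The co-chaperone Hsp70-Hsp90 organizing protein 3 (CN01_10G004330) fell by 1.62 (adjusted p = 6.64e-05, standard error 0.20) and a DnaJ protein (CN01_scaffold000873G000020) by 2.29 (adjusted p = 7.19e-06, standard error 0.23). The list as a whole summed to 11590, 11670 and 13970 at 0 h and to 3668, 4419 and 3740 at 4 h, so leaf 1 of 0 h did not stand apart here. The member called higher, a DnaJ-like chaperone (CN01_scaffold015454G000020), was at 57.9, 60.4 and 51.9 at 0 h and 121, 156 and 128 at 4 h, and rose by 1.26 (adjusted p = 0.0124, standard error 0.31). In the tall, 16 members were called lower, against 9.73% of all genes tested and 19.4% of the 738, and 2 higher, against 10.9% and 20.6%. The difference between the varieties, tall minus dwarf, was above 0 for 22 of the 23 (median 0.60), against 494 of the 738 (median 0.41). It was called for none by edgeR and for 3 by DESeq2. An unadjusted edgeR p under 0.05 was found for 6, all above 0, against 37.7% of the 738 in either direction.

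The called chaperones of the endoplasmic reticulum were higher at 4 h. The 7 genes of that list did not move as one, with 4 changes above 0, 3 below and a median of 0.33. Luminal-binding protein 5 (CN01_09G007250), the Hsp70 of that compartment, was at 106, 39.5 and 26.8 at 0 h and 726, 474 and 284 at 4 h. All leaves of 4 h were above all of 0 h, and it rose by 2.71 (adjusted p = 0.0142, standard error 0.68). The adjusted p was 0.0582 without 0 h replicate 2 and 0.0591 without 0 h replicate 3. Endoplasmin (CN01_scaffold044891G000040), the Hsp90 of the same compartment, went from 86.3, 82.7 and 71.8 to 288, 286 and 135, with leaf 3 the lowest of 4 h. It rose by 1.07 (adjusted p = 0.0115, standard error 0.26), with an adjusted p of 0.0962 with only the dwarf libraries. Bax inhibitor 1 (CN01_08G006710), a membrane protein that restrains cell death under this stress, fell by 1.54 (adjusted p = 0.00248, standard error 0.29). These were the called members among 7 genes of the endoplasmic reticulum. The 2 higher stand against 5.81% of all genes tested and 11.5% of the 738, and the 1 lower against 7.23% and 29.5%. In the tall 4 were called higher, against 10.9% and 20.6%, and 1 lower, against 9.73% and 19.4%. A chloroplast DnaJ protein, dnaJ 8 (CN01_scaffold016225G000040), was at 51.1, 16.2 and 22 and then 135, 167 and 182, and rose by 2.44 (adjusted p = 0.00164, standard error 0.43).

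Genes of photosynthesis were lower at 4 h in the dwarf, from the antenna to carbon fixation. Of 15 chlorophyll a-b binding proteins, the antenna that collects light, 11 were called lower, against 7.23% of all genes tested and 29.5% of the 738, with a median change of -1.19. All 15 had a change below 0, and for 14 the leaves of 4 h lay below those of 0 h, against 15.3% and 34.1%. Chlorophyll a-b binding protein 2 (CN01_03G010640) was at 496, 326 and 494 at 0 h and 59.6, 94.2 and 107 at 4 h, and fell by 2.19 (adjusted p = 6.46e-05, standard error 0.26). The abundant protein 21 (CN01_14G004710) was at 5039.7, 4960.2 and 5937 and then 1882, 2370.5 and 2658, and fell by 1.14 (adjusted p = 0.00252, standard error 0.21). For both genes the groups were well apart. A less abundant gene, CN01_scaffold020585G000060, went from 44, 101 and 128 to 10.8, 11.8 and 10.5 and fell by 3.06 (adjusted p = 0.000141, standard error 0.40). The list summed to 36350, 37230 and 42190 at 0 h and to 16310, 23120 and 22180 at 4 h. Without 4 h replicate 3, 7 members were called lower. Antenna proteins form a family of similar genes, so reads may be shared between members.

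In the photosystems, electron transport and the chloroplast ATP synthase, 22 of 38 genes were called lower, against 7.23% of all genes tested and 29.5% of the 738. Another 1 was higher, against 5.81% and 11.5%, and the median change was -0.77. Ferredoxin (CN01_11G004210), which passes electrons on from photosystem I, was at 3165, 7071 and 5496 at 0 h and 1066, 659 and 943 at 4 h. It fell by 2.74 (adjusted p = 0.00025, standard error 0.38), and leaf 1 was the lowest of 0 h. Plastocyanin (CN01_09G004780), the copper protein that feeds photosystem I, was at 1207, 1537 and 1552 and then 618, 596 and 656, and fell by 1.18 (adjusted p = 0.000287, standard error 0.17). Subunit psaK of photosystem I (CN01_scaffold049646G000020) fell by 2.14 (adjusted p = 0.000381, standard error 0.31). The photosystem II 22 kDa protein (CN01_01G019510), which sheds excess light as heat, went from 1193, 1851 and 1904 to 799.7, 747 and 933 and fell by 1.03 (adjusted p = 0.00642, standard error 0.22). Oxygen-evolving enhancer protein 1 (CN01_14G005470) fell by 0.82 (adjusted p = 0.00451, standard error 0.17), with an adjusted p of 0.0524 without 4 h replicate 3. The member called higher was subunit IV A of photosystem I (CN01_scaffold002583G000010), at 423, 441 and 429.9 at 0 h and 852, 1207 and 1118 at 4 h. It rose by 1.38 (adjusted p = 0.00978, standard error 0.32), and its adjusted p was 0.0518 without 4 h replicate 3. Leaving out 0 h replicate 3 gave 13 lower members, 4 h replicate 1 gave 14 and 4 h replicate 3 gave 11.

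The largest falls of this list were in 2 genes of consecutive locus tags on chromosome 15 named for subunit T of the chloroplast NAD(P)H-quinone oxidoreductase, a complex that cycles electrons around photosystem I. CN01_15G004040 was at 30.1, 92.8 and 55.8 at 0 h and 0, 4.12 and 0 at 4 h, and fell by 6.22 (adjusted p = 0.000939). It had 389 counts at 0 h and 8 at 4 h, a ratio of 0.0218 (exact 95% interval 0.00934 to 0.0434). CN01_15G004030 was at 30.7, 35.8 and 28.6 and then 0, 0 and 0.94, with 207 counts at 0 h and 2 at 4 h, a ratio of 0.0102 (exact interval 0.00123 to 0.0375). The latter passed narrowly (adjusted p = 0.0499) and no longer passed without any one of the 6 libraries, where the adjusted p was 0.0581 to 0.171. Reads may be shared between these neighbors.

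Of 9 genes for making and turning over chlorophyll, 4 were called lower, against 7.23% of all genes tested and 29.5% of the 738. Another 1 was higher, against 5.81% and 11.5%, and the median change was -0.79. Chlorophyllide a oxygenase (CN01_01G019540), which makes chlorophyll b, was at 173, 242 and 252 at 0 h and 34.7, 28.8 and 34.7 at 4 h. It fell by 2.86 (adjusted p = 1.75e-06, standard error 0.25), the smallest adjusted p of all the photosynthesis lists. Subunit ChlH of magnesium chelatase (CN01_16G001740), which commits the pathway to chlorophyll, was at 488, 641 and 573 and then 201, 131 and 190.0, and fell by 1.82 (adjusted p = 0.000259, standard error 0.26). Protoporphyrinogen oxidase (CN01_scaffold003417G000080), annotated to mitochondria, rose by 0.94 (adjusted p = 0.00148, standard error 0.16). GLK1 (CN01_scaffold004706G000020), a transcription factor that turns on chlorophyll and antenna genes in Arabidopsis, was at 139, 233 and 223 at 0 h and 68.1, 40.5 and 66.4 at 4 h. Every leaf of 4 h was below every leaf of 0 h, and GLK1 fell by 1.75 (adjusted p = 0.000259, standard error 0.25).

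In the Calvin cycle and photorespiration, which fix carbon and recover what Rubisco loses to oxygen, 19 of 26 genes were called lower, against 7.23% of all genes tested and 29.5% of the 738. All 26 changes were below 0 (median -1.20). For 22 the leaves of 4 h lay below those of 0 h, against 15.3% and 34.1%. Rubisco activase (CN01_04G001440), which frees Rubisco of inhibitors, was at 1924, 4362 and 3978 at 0 h and 899.9, 951 and 1096 at 4 h, and fell by 1.81 (adjusted p = 0.00178, standard error 0.32). The phosphoribulokinase gene CN01_07G003390, for the enzyme that makes the acceptor of carbon dioxide, was at 296, 720.3 and 549.6 and then 81.4, 86.1 and 106, and fell by 2.70 (adjusted p = 0.000175, standard error 0.36). A second phosphoribulokinase gene, CN01_10G002110, fell by 1.82 (adjusted p = 0.000276, standard error 0.26). Carbonic anhydrase 2 (CN01_06G007250), which interconverts carbon dioxide and bicarbonate, was at 469.6, 2782 and 1586 at 0 h and 212, 219.5 and 211 at 4 h. Its 0 h leaves spread widely, and it fell by 3.22 (adjusted p = 0.00229, standard error 0.59). A peroxisomal 2-hydroxy-acid oxidase (CN01_06G020380), of the glycolate oxidase family of photorespiration, went from 22.6, 121 and 99.5 to 6.79, 11.6 and 3.48 and fell by 3.69 (adjusted p = 0.000882, standard error 0.59). Glycine dehydrogenase (CN01_14G000260), the mitochondrial step, fell by 1.99 (adjusted p = 0.00125, standard error 0.34). The Rubisco small chain (CN01_03G009080) given above had a change of -0.72 and did not pass (adjusted p = 0.0992), although its groups did not overlap. Leaf 1 was the lowest of 0 h for Rubisco activase, carbonic anhydrase and both phosphoribulokinases. Without 0 h replicate 1 the list had 22 members lower, and without 0 h replicate 2 it had 11. Of the 8 mesophyll markers, 5 were called lower, against 7.23% of all genes tested and 29.5% of the 738. All 8 belong to these photosynthesis lists, so a smaller share of mesophyll RNA and less expression within mesophyll were not separated.

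**Figure D3:**
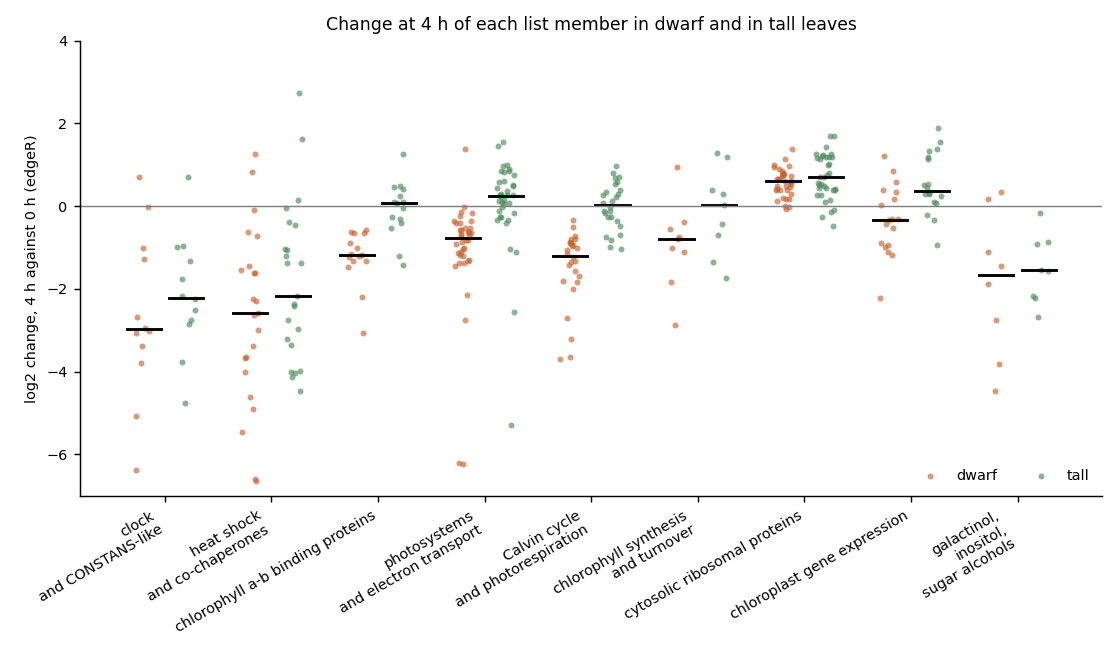
Change from 0 h to 4 h (log2, edgeR) of each member of 9 gene lists in dwarf (orange) and tall leaves (green), each point a gene, with black bars for the medians. Antenna, Calvin cycle and all but 1 of the photosystem genes lie below 0 in the dwarf (medians -1.19, -1.20 and -0.77) and on both sides of it in the tall (medians 0.09, 0.02 and 0.26). Most clock genes (11 of 12 in each variety) and heat shock genes (21 of 23 in the dwarf and 20 in the tall) lie below 0 in both.

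In the tall the median change of these photosynthesis lists was nearer 0. Of the 15 antenna genes, 2 were called lower and 1 higher in the tall. Of the 38 of the photosystems and electron transport, 4 were lower and 9 higher, and of the 26 of the Calvin cycle and photorespiration, 2 were lower and 1 higher. In the tall 9.73% of all genes tested were called lower and 10.9% higher, and of the 738 it was 19.4% and 20.6%. The lower counts were below the share of the 738 in each list, and the 9 higher genes were near it. The difference, tall minus dwarf, was above 0 for all 15, all 38 and all 26, with medians of 1.07, 1.07 and 1.29, against a median of 0.03 over all genes tested and 0.41 over the 738, of which 494 were above 0. It had an unadjusted edgeR p under 0.05 in 14 of 15, 33 of 38 and 23 of 26, all above 0, against 7.01% of all genes tested and 31.4% of the 738. Over all genes, edgeR called the difference for 11 genes only, among them 2 of the antenna and none of the other lists. DESeq2 called it for 8 of 15, 22 of 38 and 14 of 26. With the leaf as a block, edgeR called none of the 79. Without dwarf 0 h replicate 1, edgeR called 6, 10 and 9. The members were selected by the study on the tall libraries, which bears on their tall values.

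The antenna genes that passed were CN01_02G014270 and CN01_05G007590. CN01_02G014270 was at 2646, 2561 and 3844 in the dwarf at 0 h and 1147, 1031 and 1508 at 4 h, and at 1778, 1899 and 2298 and then 2688, 3226 and 2380.4 in the tall. The dwarf groups did not overlap, and the change of -1.19 in the dwarf differed from that of 0.49 in the tall by 1.68 (adjusted p = 0.0418, standard error 0.29). Chlorophyll a-b binding protein 4 (CN01_05G007590), of the antenna of photosystem I, was at 3559.8, 4403 and 4364 and then 1757, 3437 and 2841 in the dwarf, and at 2405, 2859.5 and 3071 and then 7078, 6289 and 6192 in the tall. Its change of -0.65 in the dwarf did not pass alone (adjusted p = 0.0859, and 0.0346 without 4 h replicate 2), the rise of 1.26 in the tall did, and the difference was 1.90 (adjusted p = 0.0418, standard error 0.33). With the leaf as a block the adjusted p of the differences was 0.0747 and 0.121, and for both genes it was 0.0652 to 0.169 without 0 h replicate 2 or 3 or 4 h replicate 1 or 3. For CN01_02G014270 it was also 0.0706 without 4 h replicate 2.

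Proteins of the cytosolic ribosome moved the other way. Of 35 genes, 14 were called higher, against 5.81% of all genes tested and 11.5% of the 738, with a median change of 0.60 and a range of -0.07 to 1.37. For 25 the leaves of 4 h lay above those of 0 h, against 18.7% and 22.5%. Ribosomal protein L9 (CN01_08G008030) was at 121, 99.9 and 109 at 0 h and 313, 235 and 342 at 4 h, and rose by 1.37 (adjusted p = 0.000383, standard error 0.20). L13-1 (CN01_07G015340) was at 278, 199 and 247 and then 419.9, 412 and 555, and rose in each leaf (adjusted p = 0.00227, standard error 0.18 on the log2 scale). L37a (CN01_10G003160) rose by 1.14 (adjusted p = 0.00907, standard error 0.26) and S7 (CN01_14G007080), of the small subunit, by 0.98 (adjusted p = 0.0029, standard error 0.19). Without 4 h replicate 3, 3 members were called, with adjusted p of 0.0911 for L37a and 0.0668 for S7. The count was 6 without 0 h replicate 2 and 8 without 0 h replicate 3, without 4 h replicate 1 or with leaf 1 left out at both times. In the tall 20 were called higher, against 10.9% of all genes tested and 20.6% of the 738, and the difference between the varieties was called for none by edgeR (1 with an unadjusted p under 0.05) and for 1 by DESeq2.

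Of 18 genes of chloroplast gene expression, 6 were called lower and 2 higher, against 7.23% and 5.81% of all genes tested. These counts in the dwarf are near the 29.5% and 11.5% of the 738 and are given for the members alone. Sigma factor sigE (CN01_06G002900), which guides the chloroplast RNA polymerase to its promoters, was at 34.7, 145 and 87 at 0 h and 29, 17.8 and 23.4 at 4 h. It fell by 2.21 (adjusted p = 0.00858, standard error 0.50), and leaf 1 was the lowest of 0 h. Iojap (CN01_11G001320), a factor of the chloroplast ribosome, was at 110.3, 92.3 and 90.5 and then 156, 216 and 184, and rose by 0.86 (adjusted p = 0.00269, standard error 0.16). The count of lower members fell to 2 without 0 h replicate 2 or 4 h replicate 1. It was 3 when 0 h replicate 3 was left out and 1 when 4 h replicate 3 was. In the tall 7 were called higher and none lower, against 10.9% and 9.73% of all genes tested and 20.6% and 19.4% of the 738. The difference, tall minus dwarf, was above 0 for 17 of 18 (median 0.79), against 494 of the 738 (median 0.41). EdgeR called it for none and DESeq2 for 5. An unadjusted edgeR p under 0.05 was found for 11, all above 0, against 31.4% of the 738. The rRNA methyltransferase nop2 (CN01_01G013430), which acts in ribosome assembly, rose by 0.98 (adjusted p = 0.0172, standard error 0.25), and its adjusted p was 0.0641 without 0 h replicate 2 and 0.162 without 4 h replicate 3.

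Genes that the study named for the salt response were examined one by one. The chloroplast Cu-Zn superoxide dismutase (SODCP, CN01_08G010630, chromosome 8), which turns superoxide into hydrogen peroxide, was at 517, 347 and 345 at 0 h and 519, 558 and 470.2 at 4 h. Leaf 1 of 0 h lay within the range of 4 h, and the change of 0.25 (standard error 0.18) did not pass (adjusted p = 0.404). Protein phosphatase 2C 53 (CN01_14G000430, chromosome 14), of a family that blocks abscisic acid signals, was at 38.2, 54.1 and 48.9 and then 5.93, 17.4 and 10.6. It fell by 2.02 (adjusted p = 0.00147, standard error 0.35), and protein phosphatase 2C 16 (CN01_06G001030) by 1.53 (adjusted p = 0.000641, standard error 0.24). The potassium channel AKT2 (CN01_01G020060, chromosome 1), a weakly rectifying channel of the phloem and mesophyll in Arabidopsis, was at 120.1, 328 and 286 at 0 h and 99.9, 62.9 and 64.4 at 4 h. It was lower in each leaf and fell by 2.18 (adjusted p = 0.00551, standard error 0.46), although leaf 1 differed little between the times. With only the dwarf libraries in the fit, the AKT2 change was -1.53 and did not pass (adjusted p = 0.126). MT3 (CN01_14G002700), named for metallothioneins, which bind metals through their cysteines, was at 1643, 4832 and 2313 and then 1755, 1555 and 1352. Its groups overlapped, and the change of -1.32 did not pass (adjusted p = 0.236).

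The differences between tall and dwarf were not called for these 4 genes by edgeR (adjusted p of 0.111 for SODCP, 0.854 for protein phosphatase 2C 53, 0.827 for AKT2 and 0.467 for MT3). The study reports SODCP as raised early in the tall but not the dwarf, and proposes it as a possible salt tolerance marker. The study counts more genes in the reactive oxygen species pathway than the 8 found among the 738. Among those 8, edgeR called the difference for none and DESeq2 for 2. An unadjusted edgeR p under 0.05 was found for 4, with 3 differences above 0, against 37.7% of the 738. Without dwarf 0 h replicate 1, edgeR called 1. Whether SODCP was among these genes is not given here. Of 5 genes among the 738 assigned to the SOS pathway, also fewer than the study counts, 3 were called lower, against 7.23% of all genes tested and 29.5% of the 738. One was bHLH041 (CN01_06G001700), a transcription factor, at 1166, 1231 and 1727 at 0 h and 136, 137 and 190.3 at 4 h. It fell by 3.08 (adjusted p = 3.21e-05, standard error 0.35) with leaves far apart. B-box zinc finger protein 24 (CN01_scaffold017942G000010), named for a light-signaling repressor, fell by 1.23 (adjusted p = 0.012, standard error 0.30), with an adjusted p of 0.063 without 0 h replicate 2 and 0.0538 without 4 h replicate 3. The kinase gene CIPK1 (CN01_01G000320), of a family that SOS2 belongs to, was at 179, 203 and 196 and then 233, 161 and 125 and did not pass (adjusted p = 0.208).

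Of 44 genes assigned to the abscisic acid pathway, 13 were called lower and 3 higher, against 7.23% and 5.81% of all genes tested. Against the 29.5% and 11.5% of the 738, the lower count was at the background and the higher below it, so these 44 genes as a set did not stand apart. The lower ones include genes already given: CONSTANS-like genes, REVEILLE 5 and GLK1. XERICO (CN01_01G013650), a ubiquitin ligase that raises abscisic acid in Arabidopsis, was at 19.4, 68.6 and 34.2 at 0 h and 3.06, 11 and 3.49 at 4 h, and fell by 3.22 (adjusted p = 0.00154, standard error 0.56). BURP domain-containing protein 6 (CN01_scaffold011142G000020) went from 86.6, 355 and 249 to 11.6, 41.6 and 16 and fell by 3.57 (adjusted p = 0.00116, standard error 0.59). Among the higher was a Myb-related gene named for protein 308 (CN01_07G002500), at 41.3, 35.6 and 35.5 and then 110.2, 123 and 75, which rose by 1.32 (adjusted p = 0.00313, standard error 0.26). Leaving out 0 h replicate 1 gave 15 lower and 8 higher, 0 h replicate 2 gave 8 and 2, and 4 h replicate 3 gave 9 and 1.

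Enzymes of reactive oxygen species changed little as a group. Of 24, 3 were called lower and 1 higher, near the shares of all genes (7.23% and 5.81%) and below those of the 738 (29.5% and 11.5%), and the median change was 0.09. Both catalase isozyme 1 genes, which split hydrogen peroxide in peroxisomes, were lower. CN01_scaffold008402G000010 was at 36.4, 111 and 91.9 at 0 h and 18.1, 21.9 and 14 at 4 h and fell by 2.23 (adjusted p = 0.00134, standard error 0.38). CN01_07G014620 fell by 1.77 (adjusted p = 0.00533, standard error 0.37). A thioredoxin (CN01_02G011730) was at 80.5, 220.2 and 183 and then 58.7, 66.8 and 18.9 and fell by 2.36 (adjusted p = 0.00744, standard error 0.53). The member called higher was peroxidase 4 (CN01_04G004220), of a secreted family, at 163, 45.5 and 90.7 and then 214, 195 and 388. Its groups did not overlap, and it rose by 1.88 (adjusted p = 0.0148, standard error 0.47). The thioredoxin had an adjusted p of 0.0685 without 4 h replicate 3, and the peroxidase 0.0547 to 0.0886 without 0 h replicate 2 or 3 or 4 h replicate 3. Phospholipid hydroperoxide glutathione peroxidase (CN01_01G004690) had a change of -0.45 and did not pass (adjusted p = 0.0851); without 0 h replicate 1 it did, at -0.58 (adjusted p = 0.0294).

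Of 8 genes for galactinol, inositol and sugar alcohols, which are osmolytes or lead to them, 6 were called lower, against 7.23% of all genes tested and 29.5% of the 738, with a median change of -1.67. The other 2 had changes above 0 that did not pass. Inositol-3-phosphate synthase, the first step to myo-inositol, had 2 genes. CN01_03G006570 was at 1144, 1480.3 and 1563 at 0 h and 301, 142 and 238 at 4 h and fell by 2.75 (adjusted p = 0.000167, standard error 0.37), and CN01_02G007310 was at 1501, 2079 and 2647 and then 719, 426 and 695 and fell by 1.88 (adjusted p = 0.00142, standard error 0.32). Galactinol synthase 1, which starts the raffinose sugars, also had 2 genes. CN01_14G004830 was at 402, 3893 and 1338 at 0 h and 348, 156 and 130.1 at 4 h, and CN01_06G007090 at 44.5, 494 and 144 and 18, 18 and 11.8. Leaf 2 of 0 h was far above the others for both, and leaf 1 the lowest of 0 h. They fell by 3.82 (adjusted p = 0.00366, standard error 0.76) and by 4.47 (adjusted p = 0.00399, standard error 0.90), respectively. Inositol transporter 1 (CN01_scaffold015887G000040) fell by 1.45 (adjusted p = 0.000751, standard error 0.23). In the tall 5 of the 8 were called lower, against 9.73% of all genes tested and 19.4% of the 738, and the difference between the varieties was called for none by edgeR (5 with an unadjusted p under 0.05, against 37.7% of the 738) and for 1 by DESeq2.

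Dehydration genes and aquaporins had single members that moved. EARLY RESPONSIVE TO DEHYDRATION 15 (CN01_16G002530), a negative regulator of abscisic acid responses in Arabidopsis, was at 117, 55.6 and 66.3 at 0 h and 144, 218 and 233 at 4 h. It rose by 1.47 (adjusted p = 0.00339, standard error 0.29). The temperature-induced lipocalin-1 (CN01_scaffold015856G000040), which protects membranes from heat and oxidation in Arabidopsis, was at 476, 407 and 431 and then 108, 167 and 121, and fell by 1.70 (adjusted p = 6.93e-05, standard error 0.21). Of 11 genes of the dehydration list 2 were called higher, against 5.81% of all genes tested and 11.5% of the 738. Another 2 were lower, against 7.23% and 29.5%. Without 4 h replicate 3 it was 1 in each direction. Of 4 aquaporins 1 was called higher, against 5.81% of all genes tested and 11.5% of the 738, and none lower. The called member was TIP1-1 (CN01_07G009710), a water channel of the vacuole. It was at 126, 313 and 194 at 0 h and 743, 583 and 996 at 4 h, and rose by 1.87 (adjusted p = 0.00663, standard error 0.41), with an adjusted p of 0.0806 without 4 h replicate 3. The other 3, channels of the plasma membrane, had adjusted p of 0.363 to 0.94.

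The largest rise of the 738 genes was that of a mannose-specific lectin (CN01_04G016090), a sugar-binding protein of a family known from defense and storage. It was at 115, 19.2 and 1.2 at 0 h and 2039, 1232 and 965 at 4 h, with all leaves of 4 h above those of 0 h, and rose by 5.06 (adjusted p = 0.00552, standard error 1.07). Ricin-like genes of the same list, named for ribosome-inactivating proteins, were higher at 4 h in each leaf but spread so widely between leaves that the groups overlapped. One of them, CN01_scaffold016931G000010, was at 2533, 239 and 0.88 at 0 h and 11773, 8077 and 218 at 4 h (adjusted p = 0.783). Another, CN01_08G006760, was at 4038, 976 and 489 and then 8936, 9096 and 3705, with an adjusted p of 0.157 (edgeR) and of 0.0254 without 0 h replicate 1. Leaf 1 had the highest level of both at 0 h, and leaf 3 the lowest at each time. Leaf 1 was also the leaf with the highest 11S globulin. Of the 6 genes of the list 1 was called higher, against 5.81% of all genes tested and 11.5% of the 738. With the leaf as a block or without 0 h replicate 1 it was 2.

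A GDSL esterase/lipase (CN01_09G004940), of a large family of lipid hydrolases, was at 66.9, 23.1 and 31.7 at 0 h and 1092, 743 and 497 at 4 h. It rose by 4.15 (adjusted p = 0.00142, standard error 0.71). Cytochrome P450 71A9 (CN01_12G003850), a monooxygenase, was at 49.8, 20.6 and 19.4 and then 356, 240.3 and 254, and rose by 3.19 (adjusted p = 0.000495, standard error 0.48). An intracellular ribonuclease (CN01_02G012760), of a family that recycles phosphate from RNA in tomato, was at 294, 33.2 and 110.0 and then 969, 828 and 1479, and rose by 3.30 (adjusted p = 0.00389, standard error 0.66). In all 3 genes each leaf was higher at 4 h and the groups did not overlap. The first enzyme of the shikimate pathway to aromatic amino acids (CN01_05G005580, phospho-2-dehydro-3-deoxyheptonate aldolase 1) was at 75.4, 43.3 and 49.2 at 0 h and 219, 215 and 259 at 4 h, and rose by 2.04 (adjusted p = 0.000495, standard error 0.31). A 21 kDa protein (CN01_02G005280) rose by 2.29 (adjusted p = 0.00672, standard error 0.50), with an adjusted p of 0.0548 without 4 h replicate 3. A proline-rich protein of 36.4 kDa (CN01_01G003200), of the cell wall by its name, rose by 1.93 (adjusted p = 0.0173, standard error 0.50), with an adjusted p of 0.0541 to 0.0685 without 0 h replicate 2 or 4 h replicate 1 or 3.

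**Figure D4:**
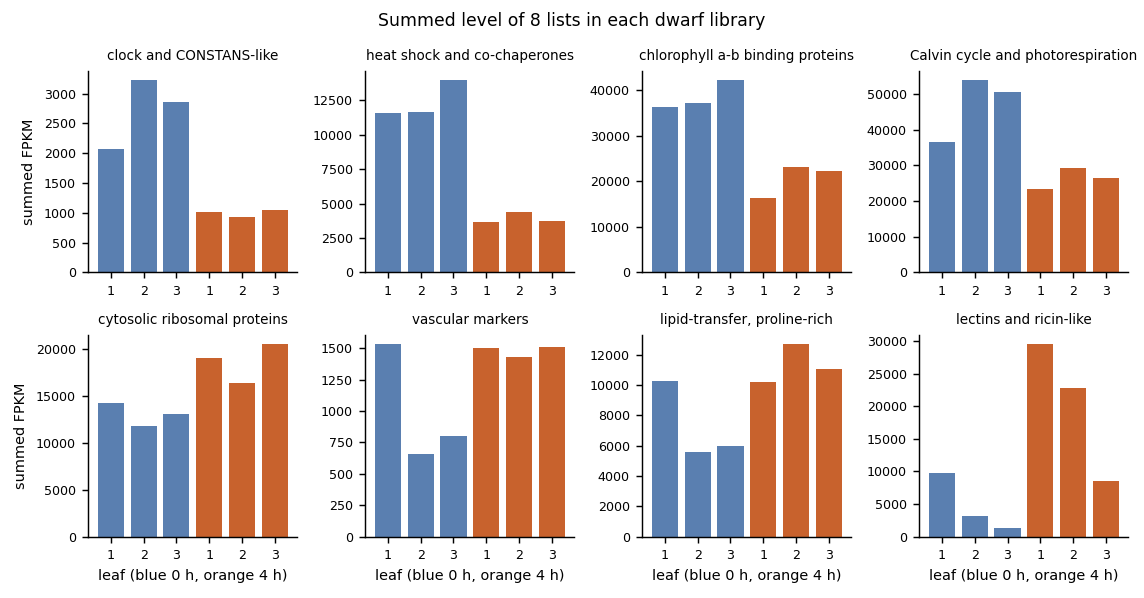
Summed level (FPKM, linear axes from 0) of 8 gene lists in the 6 dwarf libraries, leaves 1 to 3 at 0 h (blue) and 4 h (orange). Clock, heat shock, antenna and Calvin cycle sums are lower in all 3 leaves of 4 h than in any of 0 h, ribosomal sums are higher, and vascular, lipid-transfer and lectin sums of leaf 1 at 0 h (1531, 10250 and 9806) stand above those of leaves 2 and 3.

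Of 24 genes of flavonoid synthesis, 6 were called higher and none lower, against 5.81% of all genes tested and 11.5% of the 738 higher, with a median change of 0.38. Flavonoid 3'-monooxygenase (CN01_05G001950), which sets the hydroxyl pattern of flavonoids, was at 146, 107 and 60.3 at 0 h and 627, 461 and 387 at 4 h. It rose by 1.87 (adjusted p = 0.00125, standard error 0.31). A gene of the chalcone isomerase family (CN01_12G006260) was at 168, 141 and 154 and then 449, 272 and 500.0 and rose by 1.33 (adjusted p = 0.0121, standard error 0.32). For 10 members the groups were apart with 4 h higher, against 18.7% and 22.5%. The count of 6 was 3 without 0 h replicate 2 or 4 h replicate 1. It was 2 when 0 h replicate 3 was left out and 1 when 4 h replicate 3 was, where the isomerase had an adjusted p of 0.142.

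Of 26 cell wall and cytoskeleton genes, 4 were called higher and 4 lower, against 5.81% and 7.23% of all genes tested. Against the 738 the count was near their 11.5% higher and below their 29.5% lower, and the list did not move one way. Without 0 h replicate 1 it was 8 and 4, and without 4 h replicate 3 it was 2 and 3. Fasciclin-like arabinogalactan protein 2 (CN01_01G006180), a cell surface protein, was at 195, 54.5 and 66.5 at 0 h and 355, 382 and 495 at 4 h. It rose by 2.19 (adjusted p = 0.00711, standard error 0.49), with an adjusted p of 0.0512 without 4 h replicate 3. A beta-tubulin gene (CN01_01G016440), of the microtubules, was at 95.7, 53.5 and 43.1 and then 259.9, 199 and 199 and rose by 1.61 (adjusted p = 0.00345, standard error 0.32). Actin-101 (CN01_15G001540) and a katanin subunit (CN01_14G006400), which belongs to a microtubule-severing enzyme, fell by 1.46 (adjusted p = 0.00154, standard error 0.25) and 1.44 (adjusted p = 0.00227, standard error 0.27). Leaf 1 had the highest 0 h level of the fasciclin-like protein and of the tubulin.

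Other named genes with large falls were a UV-B receptor and a desaturase. UVR8 (CN01_12G008050), named for the photoreceptor of UV-B light, was at 104, 232 and 216 at 0 h and 12.3, 7.62 and 7.6 at 4 h, and fell by 4.54 (adjusted p = 3.68e-07, standard error 0.34). Fatty acid desaturase 4 of the chloroplast (CN01_01G014520), which makes an unusual fatty acid of thylakoid lipids in Arabidopsis, was at 19.6, 155 and 111 and then 9.32, 1.53 and 4.77, and fell by 4.75 (adjusted p = 0.00335, standard error 0.93). Every leaf of 4 h was below every leaf of 0 h for both. Among genes without a product name, COCehwD015420.1 was at 193, 139 and 202 at 0 h and 2.18, 1.28 and 1.14 at 4 h and fell by 6.72 (adjusted p = 4.59e-07, standard error 0.51). COCehwD003378.1 was at 9.44, 19.1 and 0.68 and then 484, 226 and 151 and rose by 6.66 (adjusted p = 0.00363, standard error 1.32).

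The varieties differed in the 4 h change of 11 genes (0.0584% of those tested), 7 with a higher change in the tall (0.0372%) and 4 with a lower one (0.0212%). Besides the 2 antenna genes, 2 had a product name other than hypothetical. The membrane protein PM19L (CN01_16G001410), of a family known from dormant grain, was at 219.7, 228 and 251 at 0 h and 184, 232 and 182 at 4 h in the dwarf, and at 128, 187 and 133 and then 362, 381 and 319.6 in the tall. All tall leaves were higher at 4 h, the dwarf groups overlapped, and the difference was 1.62 (adjusted p = 0.0365, standard error 0.26). A PRA1 family protein (CN01_04G003840), of vesicle traffic, was at 88.2, 84.4 and 59.7 and then 127, 142 and 118 in the dwarf, and at 108, 98.8 and 122 and then 53.7, 55 and 68.8 in the tall. The groups were apart in opposite directions, and the difference was -1.45 (adjusted p = 0.0418, standard error 0.25). The count of 11 was 1 with the leaf as a block and 283 by DESeq2. It was 212 without dwarf 0 h replicate 1, 0 without 0 h replicate 2, 0 h replicate 3 or 4 h replicate 3, 1 without 4 h replicate 1, 7 without 4 h replicate 2, and 99 with leaf 1 left out at both times. Over the same genes, 2292 had an unadjusted edgeR p under 0.05 in the fit of all libraries.

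The screening rule of the study's methods was also applied to the dwarf at 4 h. It asks for a mean of at least 100 FPKM in rising genes or at most 100 in falling genes, a 2-fold change, and a NOISeq probability that reaches 0.8. That probability was rebuilt here from FPKM, with 0 replaced by 0.5, as the share of all within-group replicate pairs of genes with both a smaller ratio and a smaller difference. By this rule 186 genes rose and 464 fell. With the level of falling genes judged at 0 h, at least 100 FPKM, 196 fell. With the edgeR call in place of the probability, 123 rose and 702 fell.

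Leaves of the same dwarf seedlings were also sampled after 6 days (n = 3) and 10 days (n = 2). These libraries are set against the same 0 h leaves, so only levels are given, as mean ± SD. LHY (CN01_09G003420) was at 679 ± 163 at 0 h, 67.5 ± 12.9 at 4 h, 1062 ± 182 at 6 days and 1419 ± 40.8 at 10 days. The heat shock 70 kDa protein (CN01_12G007620) was at 1887 ± 234, 119.8 ± 13.8, 676 ± 64.2 and 1516 ± 565 at these times. For both, 4 h had the lowest level of the 4 times. Rubisco activase (CN01_04G001440) was at 3422 ± 1311, 982 ± 102, 9232 ± 2889 and 11040.0 ± 1169, again with the lowest level at 4 h. Ribosomal protein L9 (CN01_08G008030) was at 109.9 ± 10.7, 297 ± 55.3, 36.8 ± 13.3 and 30.4 ± 4.48, with the highest level at 4 h. The mannose-specific lectin (CN01_04G016090) also peaked then, at 45.3 ± 61.5, 1412 ± 559, 8.86 ± 8.17 and 0.93 ± 1.31.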

How the data were processed

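Leaf RNA of coconut (Cocos nucifera) was sequenced in 22 libraries as single-end reads of 50 bases. According to the methods, the authors mapped clean reads to the genome with BWA and to the gene set with Bowtie and quantified genes with RSEM; tool versions are not given in the sources used here. Each deposited file holds an expected count and an FPKM per gene, computed by the authors on coding lengths. Genes missing from a file were set to 0, and 73.9% of expected counts were whole (tolerance 0.001). The authors did not pool replicates.

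Expected counts were rounded and fitted with edgeR 4.0.16 (R 4.3.3, TMM scaling, filterByExpr, quasi-likelihood test, Benjamini-Hochberg adjustment, threshold 0.05) over all 8 variety and time groups, with the flow cell as a term, and 18840 genes were tested. The script was tested on simulated data. Alternatives used limma 3.58.1 on log2(FPKM + 1) or log2(FPKM + 0.1), DESeq2 1.42.0, other filters, other library sets, the leaf as a block, and each replicate left out. Dwarf libraries held 2977359 to 3343568 counts at 0 h and 4 h, and intervals cover counting error only.

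Leaves pair the samples per the study's methods. The deviations of same-numbered dwarf samples from their group means correlated at 0.199, 0.248 and 0.417, against -0.247 to -0.008 for other pairs. Deviations sum to 0 within a group, which pushes other pairs below 0 once same-numbered pairs are above it. The other pairs are therefore not an independent comparison. P-values rest on a spread estimated over the libraries of all 8 groups, not on these dwarf leaves alone. The methods give 3 seedlings as the replicates. The main fit had no term for the leaf, so samples of the same leaf entered it as independent.

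Product names came from the study's supplementary gene table, matched for 738 genes. The copy used here held fewer genes than the study counts, so lists and pathways can lack members. Named genes were those the study names for salt, the 12 rising and 12 falling of largest change among called genes with a product name and a mean of at least 10 FPKM, up to 5 members of each list by adjusted p, up to 10 named genes called for the difference between varieties, and 2 unnamed genes in each direction. Not every such gene is described, and others were chosen after their values were seen. Members and lists were chosen with earlier results of these data known. Sequences and coordinates were not used here.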

Additional observations from a re-analysis of the deposited data

Results flagged for a closer look

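The change from 0 h to 4 h differed between tall and dwarf for 11 genes by the edgeR test of the difference, tall minus dwarf, over 18840 genes. No explanation was tested for any of them. The antenna gene CN01_02G014270 differed by 1.68 and chlorophyll a-b binding protein 4 (CN01_05G007590) by 1.90, and the levels of both stand in the report. The membrane protein PM19L (CN01_16G001410) differed by 1.62 and the PRA1 family protein (CN01_04G003840) by -1.45.

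A conserved hypothetical protein (CN01_14G008630) was at 97.5, 102 and 71.2 FPKM at 0 h and 24.5, 50.1 and 23.8 at 4 h in the dwarf, and at 96.5, 117 and 74.6 and then 96.5, 97 and 141 in the tall. It was lower in every dwarf leaf at 4 h, and the difference was 2.12 (edgeR adjusted p = 0.0365). The other 6 genes have no product name here. COCehwD026503.1 was at 8.11, 11.4 and 12.2 and then 0.96, 1.29 and 1.53 in the dwarf but at most 1.5 in any tall library of 0 h or 4 h, and differed by 4.66 (adjusted p = 0.0418). COCehwD023613.1 was lower in the dwarf, at 73.2, 81.1 and 85 and then 48.8, 53.9 and 49, and its levels in the tall were 34.8, 58.5 and 38.6 and then 64, 62.3 and 71.2, a difference of 1.47. COCehwD026584.1 went from 404, 408 and 427 to 319, 365 and 305 in the dwarf and from 222, 351 and 268 to 538, 552 and 526 in the tall, a difference of 1.40.

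The remaining 3 had lower levels at 4 h in every tall leaf. COCehwD021666.1 was at 42.5, 24.3 and 33.9 and then 56, 24.8 and 79.2 in the dwarf and at 37.8, 32.1 and 64.7 and then 15.1, 13.7 and 10 in the tall, and differed by -2.76. COCehwD004726.1 was at 35.7, 34.1 and 44.1 and then 32.2, 50.3 and 35.8 in the dwarf and at 81.3, 95.1 and 61.5 and then 20.1, 25.1 and 24.2 in the tall, and differed by -1.63. COCehwD007515.1 was at 31.5, 26.9 and 26.8 and then 37.8, 28.6 and 41 in the dwarf and at 45.5, 45 and 47.5 and then 22.7, 21.2 and 21.6 in the tall, and differed by -1.45. Without dwarf 0 h replicate 2, 0 h replicate 3 or 4 h replicate 3 the adjusted p of all 11 was 0.0825 to 0.199. Without 4 h replicate 1 it was 0.0652 to 0.0821, and with the leaf as a block 1 of the 11, the PRA1 family protein (CN01_04G003840), passed (adjusted p = 0.0404).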

How the results depend on the processing

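The count of 2457 genes changed in the dwarf at 4 h was 618 with only the dwarf libraries in the fit, 631 with only the 4 h library of flow cell AV, and 1423 with a log2 change of at least 1 added. It was 968 to 2844 with 1 replicate left out. It stayed within 1.5 times of the main count under 9 other settings, between 2073 (only the 6 libraries compared) and 3068 (no flow cell term), among them the leaf as a replicate block (2410) and DESeq2 (2700). The count of 11 genes that differed between the varieties was 1 with the leaf as a replicate block, 283 by DESeq2, 99 with leaf 1 left out at 0 h and 4 h, and 0 to 212 with 1 dwarf replicate left out. By the study's criteria 650 genes passed, 382 with the level of falling genes judged at 0 h, and 565 to 869 with 1 replicate left out. Leaving out leaf 1 at both times, the replicates under the study's criteria, and the counts of list members under each setting were chosen after the data were seen.

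Of the 94 genes named here that were called for the dwarf change, 50 were called under all 17 settings that refit or subset the data, and no called gene changed sign. With only the dwarf libraries 35 lost the call, with only the 4 h library of flow cell AV 30, and without dwarf 4 h replicate 3 it was lost by 16. The leaf as a replicate block ended the call of Gigantea1 (0.66, adjusted p = 0.051) and changed no other call of a named gene besides those of the differences between varieties. The cause of these losses was not tested. At totals of 2977359 to 3343568 counts a library, genes with few counts at 4 h such as the NAD(P)H-quinone oxidoreductase subunit T pair are limited by depth.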
